A study of Mus musculus with 6 samples.

Results

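The genes described here are 10 markers of mast cells and basophils: the granule proteases Cpa3, Tpsab1, Tpsb2, Cma1, Mcpt8, Mcpt4 and Ctsg, the IgE receptor chains Fcer1a and Ms4a2, and the transcription factor gene Gata2. They were taken by symbol from a table of 18122 genes, and all 10 were found there. They were picked because they were lower in ICOS KO than in WT in these same libraries, so their levels are a description of that pattern and carry no test. Messenger RNA had been measured in ILC2s (group 2 innate lymphoid cells, which make type 2 cytokines in the lung and lack antigen receptors) that were sorted from mouse lung and then cultured. There were 3 WT libraries, from mice whose genotype is given as BALB/C BYJ, and 3 ICOS KO libraries, from C.129S4-Icostm1Shr/J mice, in which Icos, coding for a co-stimulatory receptor of T cells and ILC2s, is targeted. The strain names of the groups differ as well as the Icos allele, and the effects of strain and allele cannot be told apart. The age of the mice is not in the labels. The series text speaks of duplicates, and nothing there says that the 3 libraries of a group are from different animals or cultures, so any p-value rests on library-to-library spread that could be technical only.

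Mast cells and basophils are granule-bearing cells of allergic inflammation. Both carry the high-affinity IgE receptor and release histamine and proteases from granules when antigen cross-links bound IgE. Mast cells store tryptases, chymases and carboxypeptidase A3 in complex with serglycin proteoglycan, whereas the protease of Mcpt8 marks mouse basophils. Gata2 is a transcription factor that both lineages need, and GATA factors bind DNA at the core letters GATA. ILC2s are known for their need of Gata3, a related factor.

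The upstream sequences of 4 of these genes are shown because Gata2, 1 of the 10, encodes a GATA factor. They are the 250 bases before the RefSeq start site (GRCm38.p6), which can differ from the gene ends given further on, written on the gene's own strand, with the letters GATAA or its reverse complement TTATC in capitals.
Cpa3, chr3:20242182-20242431 (- strand): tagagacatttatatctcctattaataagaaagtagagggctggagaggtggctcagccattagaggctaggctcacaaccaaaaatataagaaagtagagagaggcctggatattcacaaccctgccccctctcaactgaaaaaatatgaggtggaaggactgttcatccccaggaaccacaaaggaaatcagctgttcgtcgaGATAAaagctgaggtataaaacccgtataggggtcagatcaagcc
Fcer1a, chr1:173227230-173227479 (- strand): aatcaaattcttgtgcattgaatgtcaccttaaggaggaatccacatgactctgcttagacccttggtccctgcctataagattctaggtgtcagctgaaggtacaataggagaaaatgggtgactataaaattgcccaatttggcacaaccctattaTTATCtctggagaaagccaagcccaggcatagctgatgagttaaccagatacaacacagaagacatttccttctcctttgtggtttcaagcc
Ms4a2, chr19:11623720-11623969 (- strand): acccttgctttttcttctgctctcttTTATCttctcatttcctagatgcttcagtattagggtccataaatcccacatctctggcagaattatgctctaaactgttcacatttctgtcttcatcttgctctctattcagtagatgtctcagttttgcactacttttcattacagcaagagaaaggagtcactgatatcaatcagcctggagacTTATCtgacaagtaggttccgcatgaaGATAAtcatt
Mcpt8, chr14:56085198-56085447 (- strand): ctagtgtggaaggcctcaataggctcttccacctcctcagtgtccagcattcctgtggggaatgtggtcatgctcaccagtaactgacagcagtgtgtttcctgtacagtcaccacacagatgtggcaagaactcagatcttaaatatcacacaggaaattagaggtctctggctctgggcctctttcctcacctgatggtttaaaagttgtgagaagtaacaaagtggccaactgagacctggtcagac
Cpa3 held the letters in 1 place, starting 45 bases before the start site. Fcer1a held them in 1 place, at 92 bases, and Ms4a2 held 3 copies, at 224, 37 and 10 bases. No copy of GATAA or TTATC was in the Mcpt8 window, although it holds TATC, the reverse complement of the shorter core GATA. A window was found for 8 of the 10 genes (not for Tpsab1 or Tpsb2), and 5 of these 8 held GATAA on either strand, the other 2 being Cma1 (at 194 bases) and Mcpt4 (at 102 bases). The windows of Mcpt8, Ctsg and Gata2 had no GATAA or TTATC. Copies of the shorter core GATA were not counted in any window. Of all 32851 promoter windows of this length, 22.6% held the letters. A match is a string of letters and not a measured binding site. Whether any GATA factor had a part in the lower levels of the 10 genes was not tested.

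Library totals ranged from 13738062 to 18736474 estimated counts, and levels are given as CPM, counts scaled to library size with TMM factors. A floor of 3 reads lay between 0.157 and 0.225 CPM in a single library and covers counting error only. Icos measured 434, 462 and 501 CPM across the WT libraries against 140, 170 and 161 CPM across those of ICOS KO, so the labels and the targeted gene went together. ICOS KO replicate 2 stood farthest along the first principal component (54.7, against 9.33 and 27.5 in the other ICOS KO libraries and -35 to -22.3 in WT). The 11 ILC2 markers listed, led by Il5 and Il2ra, summed to 9679 to 10793 CPM in WT and 10303 to 11088 CPM in ICOS KO. Il5 alone stood at 6451 ± 531 and 6040 ± 309 CPM, so the sum mainly follows Il5. At an edgeR adjusted p under 0.05, 4 of the 11 were higher in ICOS KO (Areg, Klrg1, Arg1 and Il1rl1) and 1 was lower (Rora). Over all genes tested these shares were 1.29% and 2.01%. The calls of Il1rl1 and Rora were lost in some alternatives given below. The 10 mast cell and basophil genes summed to 386, 333 and 337 CPM in WT and to 48.1, 37.5 and 46.6 CPM in ICOS KO. Every WT library was thus far above every ICOS KO library, with means of 352 ± 29.3 and 44.0 ± 5.69 CPM (SD, n = 3 each), a 7.99-fold difference. Without Tpsab1, the most abundant of them, the sums were 103 ± 5.93 and 14.4 ± 1.88 CPM, or 7.19-fold. In such bulk RNA, fewer cells of a type and less RNA per cell cannot be told apart.

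**Figure D1:**
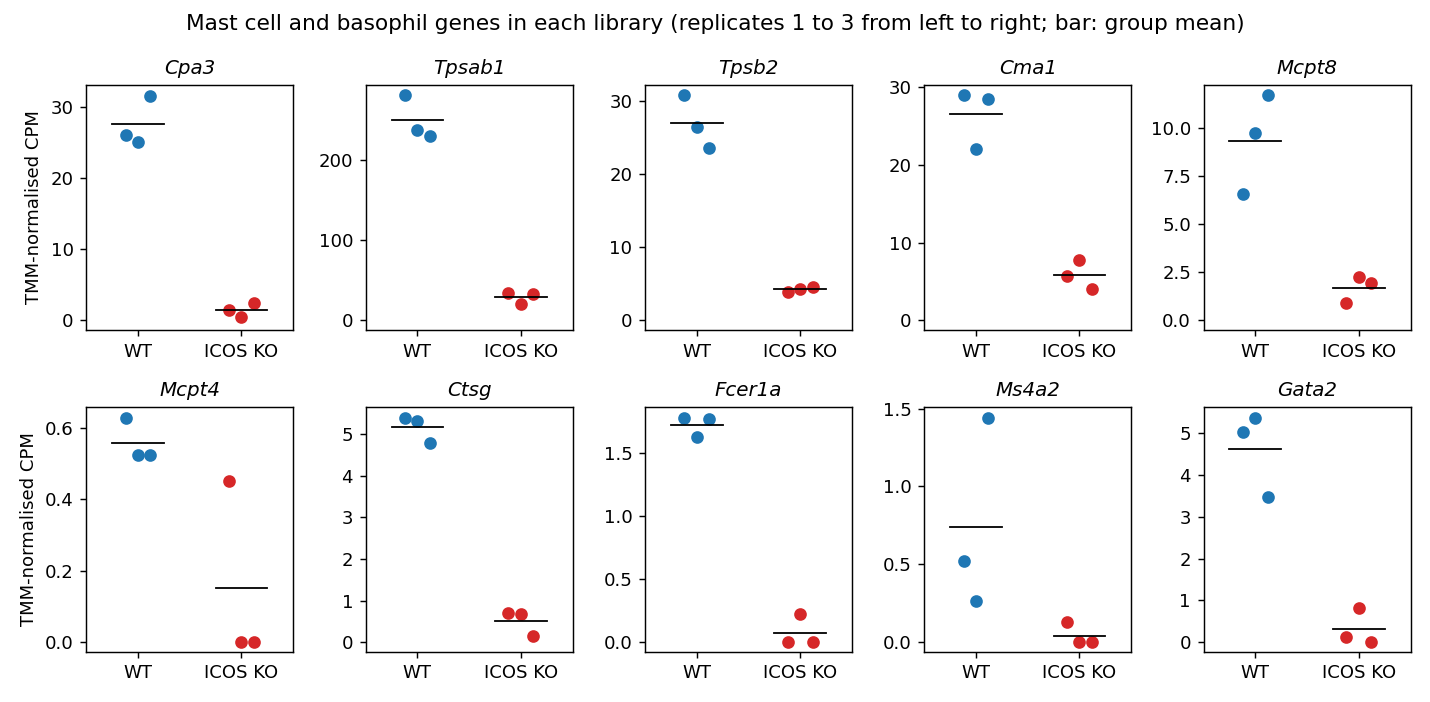
Level of each of the 10 genes (TMM-normalised CPM, linear axis that differs between panels) in the 3 WT and 3 ICOS KO libraries, with dots for libraries and a bar for the group mean. In every panel all WT dots lie above all ICOS KO dots; the groups come closest for Mcpt4 (0.524 CPM in the lowest WT and 0.452 CPM in the highest ICOS KO library) and Ms4a2 (0.263 and 0.129 CPM).

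Of the 10 genes, 8 had enough reads to enter the test across all genes and Mcpt4 and Ms4a2 did not; low genes enter through the group in which they are high. All 10 had every WT library above every ICOS KO library, as had 12.5% of the 13691 genes tested. All 8 passed an edgeR adjusted p of 0.05 as lower in ICOS KO, as did 2.01% of tested genes, but this count follows from how the genes were picked. Over all genes, 451 passed (3.29%), of which 176 were higher and 275 lower. With library totals alone as the scaling these were 127 and 324.

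The tryptases form tetramers in mast cell granules that heparin holds together. Tpsab1, on chromosome 17 at 25343245 to 25345562 (GRCm38), measured 280, 237 and 230 CPM across the WT libraries against 34.6, 21 and 33.4 CPM across those of ICOS KO. Its group means were 249 ± 27.0 and 29.7 ± 7.54 CPM, an 8.38-fold difference and a log2 fold change of -3.07 ± 0.18 (SE). Tpsb2, at 25366305 to 25369098 on the same chromosome, measured 30.9, 26.5 and 23.6 CPM across the WT libraries against 3.93, 4.35 and 4.52 CPM across those of ICOS KO. Its difference was 6.33-fold, with means of 27.0 ± 3.69 and 4.27 ± 0.302 CPM. The ratio of Tpsab1 to Tpsb2 CPM was 9.05, 8.94 and 9.75 in WT. In ICOS KO it was 8.80, 4.83 and 7.39, so the ratio was lowest in replicate 2, the library with the lowest Tpsab1. No stretch of 50 bases of a Tpsab1 or Tpsb2 transcript (GENCODE M21) occurred in a transcript of another gene. Another gene of that locus, Tpsg1, which encodes a membrane-bound tryptase, had at most 0.786 CPM in any library.

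Cpa3 encodes carboxypeptidase A3, which trims peptides and venom toxins and is shared by mast cells and basophils. The gene, on chromosome 3 at 20215620 to 20242181, measured 26.0, 25.1 and 31.5 CPM across the WT libraries against 1.42, 0.450 and 2.52 CPM across those of ICOS KO. These are 497, 477 and 481 reads against 22, 6 and 34. The means were 27.5 ± 3.47 and 1.46 ± 1.04 CPM, an 18.8-fold difference and a log2 fold change of -4.22 ± 0.37, which was -4.83 without ICOS KO replicate 3. Among the 10 genes it went from 7.87 ± 1.33% of their summed CPM in WT to 3.19 ± 2.12% in ICOS KO. The gene overlaps the microRNA gene Mir7007.

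The chymase locus on chromosome 14 holds 4 of the genes. Cma1 (55941451 to 55944675), the chymase of connective tissue mast cells that travels with Cpa3 in granules, measured 29.0, 22.0 and 28.4 CPM across the WT libraries against 5.74, 7.73 and 4 CPM across those of ICOS KO. Its difference, 4.54-fold with a log2 fold change of -2.18 ± 0.23, was the smallest of the 8 tested genes. Mcpt4 (56059629 to 56062313), another chymase, was near the floor, with 12, 10 and 8 reads in WT and 7, 0 and 0 in ICOS KO, a ratio of 3.4 with a 95% counting interval of 1.46 to 9.16. Such an interval pools the reads of a group as if they were independent and leaves out the spread between libraries. It is no test, as the gene was picked for being lower in ICOS KO. Ctsg (56099881 to 56102574), the gene of cathepsin G, which mast cells and neutrophils both use, stood at 5.39, 5.30 and 4.78 CPM in WT. In ICOS KO it stood at 0.710, 0.676 and 0.148 CPM, a 10.1-fold difference. Mcpt8 (56082166 to 56085273), the basophil protease, measured 6.55, 9.72 and 11.7 CPM across the WT libraries against 0.903, 2.25 and 1.93 CPM across those of ICOS KO. Its means were 9.30 ± 2.58 and 1.69 ± 0.704 CPM, 5.49-fold apart, and the gene overlaps the microRNA gene Mir6949.

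Cma1 and Cpa3 had nearly equal CPM in WT, with ratios of 1.11, 0.878 and 0.902. In ICOS KO the ratio was 4.05, 17.2 and 1.59, so Cma1 kept a larger share of its WT level than Cpa3 did in each of these libraries. The ratio of 17.2, in replicate 2, rests on 103 reads of Cma1 and 6 of Cpa3. In that library Cma1 made up 20.6% of the summed CPM of the 10 genes, against 6.61 to 8.42% in WT and 11.9 and 8.60% in the other ICOS KO libraries. Stretches of 50 bases shared with another gene made up 5.38% of those of Cma1 (with the pseudogene Gm48934), 5.48% of those of Mcpt4 (with Cma2) and 2.10% of those of Ms4a2 (with Ms4a4b), and none of those of the other 7 genes.

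**Figure D2:**
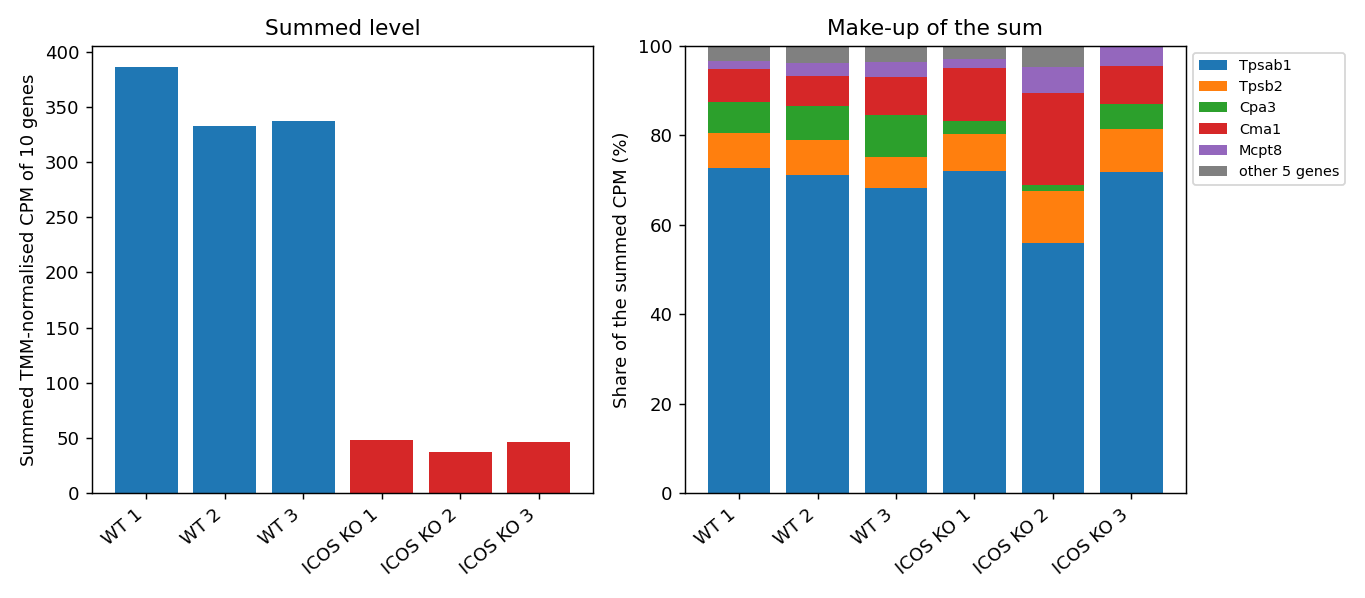
Left, summed CPM of the 10 genes in each library (WT blue, ICOS KO red, bars from 0); right, the share of that sum taken by each of the 5 most abundant genes and by the other 5 together (percent). The sum is 333 to 386 CPM in WT and 37.5 to 48.1 CPM in ICOS KO, and Tpsab1 makes up 68.2 to 72.6% in WT and 72.1, 56.0 and 71.8% in ICOS KO.

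Other members of the chymase locus did not all follow. Gzmb, which encodes the cytotoxic protease granzyme B and lies at the far end of the locus (56258838 to 56262260), rose from 204 ± 24.8 to 392 ± 96.6 CPM (log2 fold change 0.94 ± 0.16; edgeR adjusted p = 0.00694). It was 197, 184 and 232 CPM in WT and 321, 353 and 502 CPM in ICOS KO, so the groups did not overlap, but its call was lost without WT replicate 2 (edgeR adjusted p = 0.0564). Mcpt2, a mucosal mast cell chymase, stood at 0.471, 0.420 and 1.31 CPM in WT, with 1 read in all of ICOS KO. Mcpt1, also mucosal, measured 0.105, 0.210 and 2.49 CPM across the WT libraries against 0.129, 0 and 0.964 CPM across those of ICOS KO, with overlapping groups. Of the 11 genes of this locus listed besides the 4 described above, 4 were in the table and 1, Gzmb, had enough reads to be tested.

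**Figure D3:**
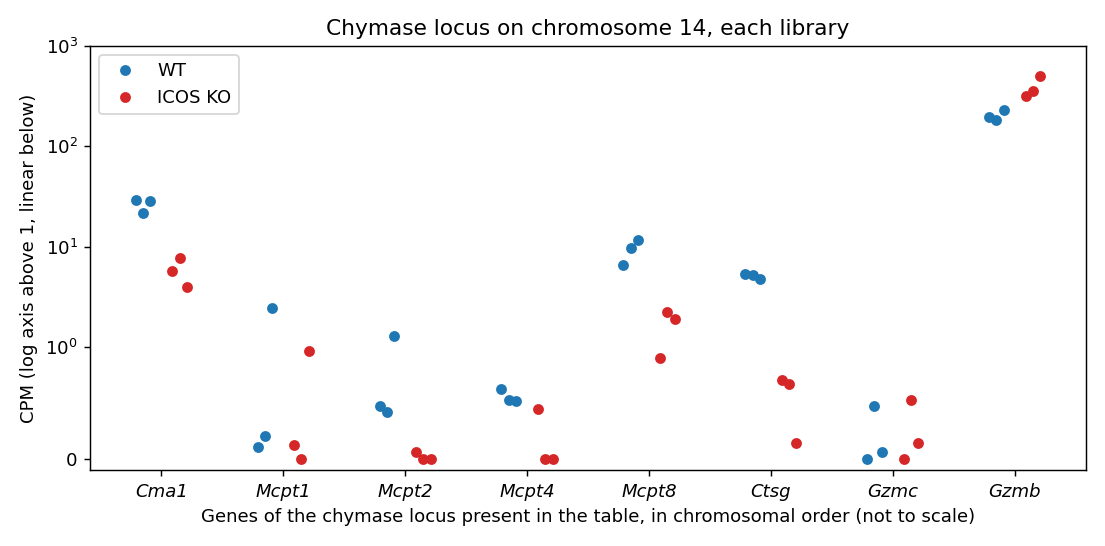
CPM (log axis above 1, linear below) of the 8 protein-coding genes of the chymase locus in the table, in chromosomal order and not to scale, with a dot for each WT and ICOS KO library. Cma1, Mcpt8 and Ctsg lie lower in ICOS KO, while Gzmb, at the right, lies higher (321 to 502 against 184 to 232 CPM).

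The IgE receptor is built of an alpha chain that binds IgE (Fcer1a), a signal-amplifying beta chain (Ms4a2) and a gamma chain shared with other Fc receptors (Fcer1g). Fcer1a, on chromosome 1 at 173221284 to 173227214, measured 1.78, 1.63 and 1.77 CPM across the WT libraries against 0, 0.225 and 0 CPM across those of ICOS KO. That is 92 reads over the WT libraries and 3 over the ICOS KO libraries, a ratio of 24.3 with a 95% counting interval of 8.06 to 120 (exact, scaled by library size). This interval and that of Ms4a2 have the limits given for Mcpt4 and are no tests. All 3 reads came from ICOS KO replicate 2. Ms4a2, on chromosome 19 at 11615523 to 11623719, had 10, 5 and 22 reads in WT and 2, 0 and 0 in ICOS KO, a ratio of 14.7 with a counting interval of 3.78 to 126. Fcer1g measured 16.2, 18.3 and 23.0 CPM across the WT libraries against 14.4, 18.7 and 16.2 CPM across those of ICOS KO (log2 fold change -0.22 ± 0.18; edgeR adjusted p = 0.519), and its groups overlapped.

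Gata2, on chromosome 6 at 88193891 to 88207032, measured 5.03, 5.36 and 3.47 CPM across the WT libraries against 0.129, 0.826 and 0 CPM across those of ICOS KO. Its means were 4.62 ± 1.01 and 0.318 ± 0.444 CPM, a 14.5-fold difference and a log2 fold change of -3.86 ± 0.74. ICOS KO replicate 2 held 11 of the 13 reads of that group, and the log2 fold change was -5.93 without it, resting on 2 reads, and -4.75 in voom. Gata3, the GATA factor of ILC2s, stood at 866 ± 51.0 and 752 ± 53.1 CPM (-0.20 ± 0.09; edgeR adjusted p = 0.227). Gata1, the GATA factor of erythroid cells, mast cells and eosinophils, measured 2.46, 0.735 and 2.49 CPM across the WT libraries against 0.258, 0.751 and 0.519 CPM across those of ICOS KO (-1.89 ± 0.64; edgeR adjusted p = 0.141). Of 9 tested GATA factors and partners listed, edgeR called none, nor did DESeq2 or voom, although 5 had an unadjusted p under 0.05 and a negative fold change. Over all tested genes, 10.2% were lower and 9.64% higher at that unadjusted threshold. The median log2 fold change of the tested genes of this list was -0.44, against -0.004 for all genes tested. All 9 had a negative fold change, as had 6904 of all 13691. For 3 of the 9 every WT library lay above every ICOS KO library, as for 12.5% of all genes tested. Tal1, Gfi1b and Cebpa were also listed but had too few reads to be tested. They had 25, 39 and 14 reads over the WT libraries and 0, 1 and 0 over those of ICOS KO.

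Divided by exon length, Tpsab1 was the most abundant in WT at 119 ± 12.9 CPM per kb of exon. It was followed by Cma1 (24.3 ± 3.56), Cpa3 (18.1 ± 2.29) and Tpsb2 (16.9 ± 2.31), of which Cma1 and Cpa3, and Cpa3 and Tpsb2, overlapped between libraries. Then came Mcpt8 (9.32 ± 2.58), Ctsg (4.99 ± 0.321), Fcer1a (1.73 ± 0.0846), Gata2 (0.855 ± 0.187), Mcpt4 (0.505 ± 0.0541) and Ms4a2 (0.264 ± 0.220), and only Mcpt4 and Ms4a2 overlapped among these. In ICOS KO, Tpsab1 (14.2 ± 3.60 CPM per kb) and Cma1 (5.34 ± 1.71) again led, followed by Tpsb2 (2.68 ± 0.190), with no overlap between these neighbours. Mcpt8 (1.70 ± 0.705) stood above Cpa3 (0.965 ± 0.683) there, but these 2 overlapped, as did every pair of neighbours below them.

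No other mast cell gene tested was called lower. Of 19 further mast cell genes listed, 15 were in the table and 9 were tested. Srgn, the serglycin core protein that packs granule proteases and is also made by lymphocytes, rose, and no gene was called lower by edgeR, DESeq2 or voom. At an unadjusted p under 0.05, 3 were lower in edgeR, as were 10.2% of all genes tested. For calls at the adjusted threshold, the background over all genes was 1.29% higher and 2.01% lower. Over the 9 tested genes the median was -0.19 on the log2 scale, and 7 had a negative fold change, as had 6904 of all 13691. Hdc, Slc18a2, Tph1 and Ndst2, 4 of these 9, had every WT library above every ICOS KO library, as had 12.5% of all genes tested. Srgn alone had every WT library below, as had 11.9% of all. Mcpt2, Mcpt1, Tpsg1, Mrgprb1, Adora3 and Slc6a4 were in this list and in the table but had too few reads to be tested. They had 37, 44, 14, 8, 32 and 19 reads over the WT libraries. Over those of ICOS KO they had 1, 15, 2, 5, 36 and 18. Which cells in the cultures made the RNA of Kit, Hpgds and the other tested genes was not tested. Kit, the stem cell factor receptor of mast cells, measured 21.8, 19.1 and 19.8 CPM across the WT libraries against 22.8, 20.7 and 17.1 CPM across those of ICOS KO (0.00 ± 0.16; edgeR adjusted p = 0.998), with groups that overlapped. Hdc, the enzyme that makes histamine, measured 6.70, 8.40 and 5.70 CPM across the WT libraries against 1.94, 3.23 and 5.49 CPM across those of ICOS KO (-0.97 ± 0.37; edgeR adjusted p = 0.178). Tph1, the serotonin-making enzyme of mast cells and ILC2s, stood at 152 ± 12.1 and 120 ± 21.5 CPM (-0.34 ± 0.13; edgeR adjusted p = 0.189). Hpgds, a prostaglandin D synthase, stood at 9.04 ± 0.750 and 8.64 ± 0.269 CPM. Srgn rose from 768 ± 165 to 1157 ± 143 CPM (0.59 ± 0.14; edgeR adjusted p = 0.045), but leaving out WT replicate 1, WT replicate 2, ICOS KO replicate 2 or ICOS KO replicate 3 ended this call (edgeR adjusted p of 0.119 to 0.214), as did scaling by library totals (0.0587).

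Of 8 further basophil genes listed, 7 were in the table and 6 were tested. Over all genes tested 2.01% were called lower, and of these 6, 1 was. It was Csf2rb, the common beta chain of the receptors for interleukin-3, interleukin-5 and GM-CSF, which ILC2s use as well. It measured 93.5, 76.5 and 91.6 CPM across the WT libraries against 45.2, 39.4 and 46.8 CPM across those of ICOS KO, or -0.99 ± 0.12 on the log2 scale (edgeR adjusted p = 0.00107). Cd200r3, an activating receptor of basophils and mast cells, measured 4.66, 3.83 and 2.42 CPM across the WT libraries against 0.258, 1.43 and 0.889 CPM across those of ICOS KO. Its groups did not overlap and its log2 fold change was -2.10 ± 0.55, but it missed the threshold (edgeR adjusted p = 0.0664; 0.0458 without ICOS KO replicate 2 and 0.00733 in DESeq2). Il3ra, the interleukin-3 receptor alpha chain, had means of 8.06 ± 2.04 in WT and 9.44 ± 3.15 CPM in ICOS KO (edgeR adjusted p = 0.684). Fcgr3 had means of 11.9 ± 2.62 in WT and 7.63 ± 1.21 CPM in ICOS KO, without overlap (edgeR adjusted p = 0.16). Over the 6 tested genes the median was -0.40 on the log2 scale. At an unadjusted p under 0.05 in edgeR, 3 were lower and 1 higher, against 10.2% and 9.64% of all genes tested. Every WT library lay above every ICOS KO library for 3 of the 6, as for 12.5% of all genes tested.

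**Figure D4:**
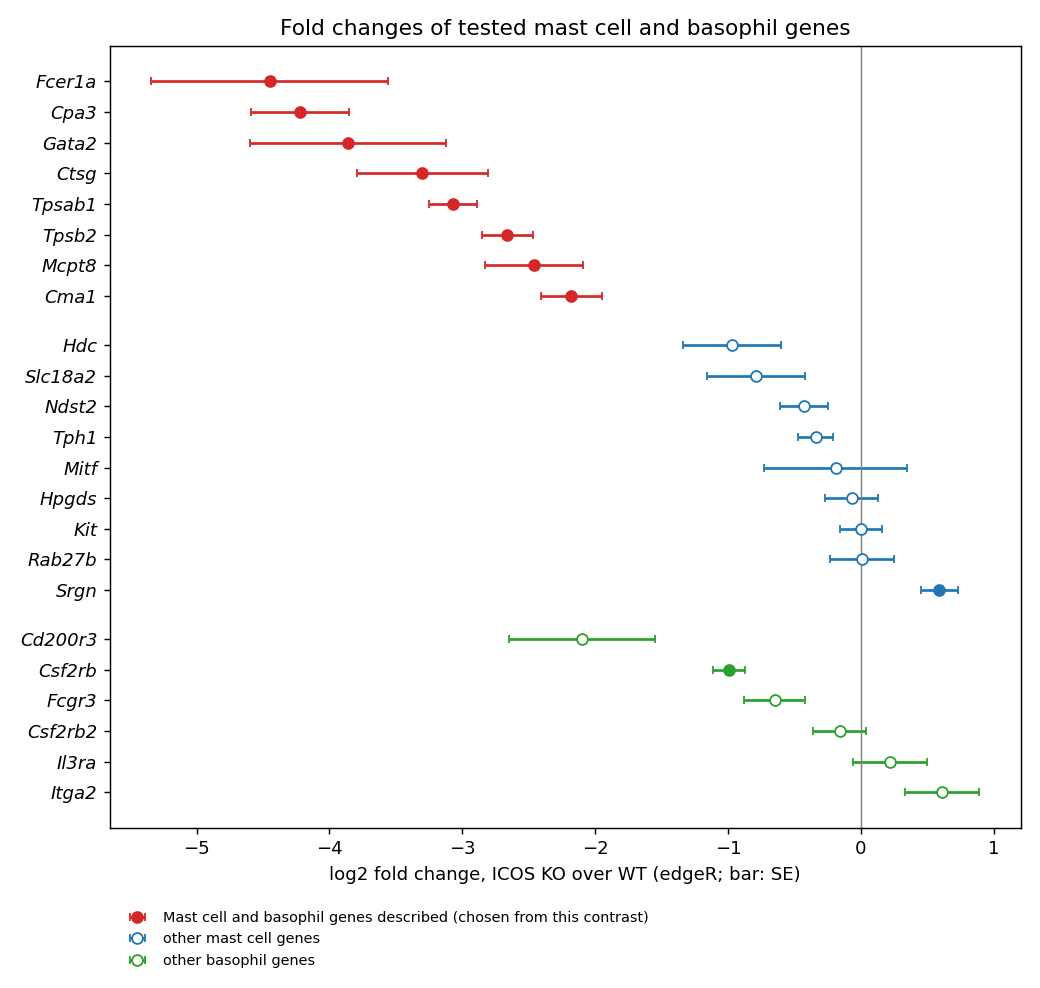
Log2 fold change of ICOS KO over WT with its SE, from edgeR, for the 8 tested genes described (red, chosen from this contrast), 9 other mast cell genes (blue) and 6 other basophil genes (green). Among blue and green symbols a filled one passed an adjusted p of 0.05; the red genes lie between -4.45 (Fcer1a, whose fitted value depends on the prior count) and -2.18, while the other genes lie between -2.10 (Cd200r3) and 0.61 (Itga2).

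Of 8 tested genes of protease processing and inhibition, 4 fell and none rose, with 4 lower in DESeq2 and 3 in voom. None was higher in DESeq2 or voom, and 1 was higher at an unadjusted p under 0.05 in edgeR. The median log2 fold change was -0.71, against -0.004 for all genes tested. Over all genes tested, edgeR called 2.01% lower and 1.29% higher, and 10.2% and 9.64% at an unadjusted p under 0.05. These shares are also the background for the lists that follow. This list, those before it and those that follow were chosen with earlier results of these data known. Their counts and medians are thus descriptions beside the background and no test of a list. Serpinb1a, an inhibitor of cathepsin G and chymase-like enzymes, fell from 164 ± 21.2 to 75.3 ± 2.48 CPM (-1.12 ± 0.11; edgeR adjusted p = 0.000286). Serpina3g, an inhibitor of lysosomal cathepsins, fell from 362 ± 39.0 to 163 ± 12.9 CPM (-1.15 ± 0.11; edgeR adjusted p = 0.00016). Serpinb9, the granzyme B inhibitor, fell from 15.3 ± 5.78 to 5.82 ± 1.59 CPM, and Lxn, an inhibitor of carboxypeptidases, from 43.7 ± 0.564 to 29.7 ± 1.51 CPM. Leaving out WT replicate 1, WT replicate 3 or ICOS KO replicate 3 ended the Serpinb9 call (edgeR adjusted p of 0.0891 to 0.138), as did voom (0.0597). That of Lxn, which overlaps Gfm1, held without ICOS KO replicate 1 but was lost on leaving out any other single library (up to 0.131). Ctsc, the dipeptidyl peptidase that activates chymases, tryptases and cathepsin G, stood at 111 ± 9.56 and 113 ± 24.4 CPM (log2 fold change 0.03 ± 0.15).

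Of 11 tested genes of granule exocytosis, 1 rose and 1 fell. Cd63, a granule membrane tetraspanin used as an activation marker of basophils, fell from 38.8 ± 4 to 19.2 ± 0.860 CPM (-1.01 ± 0.14; edgeR adjusted p = 0.00188). Stxbp2, which helps granules fuse, rose from 113 ± 3.46 to 173 ± 13.6 CPM (0.62 ± 0.10; edgeR adjusted p = 0.00508). Of 17 tested genes of IgE receptor signalling, Lyn, the kinase that first phosphorylates the receptor, fell from 51.0 ± 4.52 to 35.1 ± 3.34 CPM (edgeR adjusted p = 0.0467) and no other was called; the median was -0.11. The call of Lyn, which overlaps 4 other annotated genes, was lost in 8 of 15 alternatives: on leaving out any single library other than ICOS KO replicate 1 (edgeR adjusted p up to 0.225), with upper-quartile factors (0.0531), with no filter on low counts (0.0565) and in voom (0.0514). Of 8 tested eicosanoid and histamine enzymes, Alox5, the first enzyme of leukotriene synthesis, rose from 57.6 ± 1.80 to 145 ± 26.1 CPM (1.34 ± 0.13; edgeR adjusted p = 0.000252) and none was called lower in edgeR, DESeq2 or voom, with 2 lower at an unadjusted p under 0.05 in edgeR.

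Growth factors and receptors of mast cells and basophils were also listed, and of 10 tested, 1 rose and 2 fell. Csf2, which encodes GM-CSF, fell from 511 ± 11.5 to 153 ± 11.3 CPM (-1.74 ± 0.09; edgeR adjusted p = 3.57e-06), and Csf2rb is given above. Il4, a cytokine that basophils and ILC2s make, rose from 17.4 ± 1.93 to 29.6 ± 4.08 CPM (0.77 ± 0.16; edgeR adjusted p = 0.0217). Leaving out WT replicate 1, WT replicate 2, ICOS KO replicate 2 or ICOS KO replicate 3 ended the Il4 call (edgeR adjusted p of 0.0673 to 0.131). Kitl, the ligand of Kit, had no call (log2 fold change 0.08 ± 0.19; edgeR adjusted p = 0.858).

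Markers of other blood cells varied between libraries too. The 9 eosinophil markers summed to 30.6, 56.6 and 16.2 CPM in WT and to 21.1 to 22.5 CPM in ICOS KO. Prg2 and Epx, the granule proteins that define eosinophils, stood at 8.38 and 7.23 CPM in WT replicate 1 and at 24.6 and 17.3 CPM in WT replicate 2, whereas WT replicate 3 had 0.131 and 0 CPM and no ICOS KO library had a read of Epx. Prg3, Ear1, Ear6 and Siglecf also had lower means in ICOS KO. The rest of the list was higher there. Ccr3 had means of 11.1 ± 1.66 in WT and 17.1 ± 2.61 CPM in ICOS KO, and its groups did not overlap. Ear2 had 1.55 ± 0.300 and 2.48 ± 0.958 CPM, with overlap. Il5ra had 3 reads in WT and 44 in ICOS KO. The 10 neutrophil and promyelocyte markers summed to 7.91, 45.5 and 6.81 CPM in WT and to 2 to 6.45 CPM in ICOS KO, and Mpo alone gave 33.5 CPM in WT replicate 2. By edgeR, DESeq2 and voom, 0 of the 3 tested genes of either list were called; at an unadjusted p under 0.05 in edgeR, 1 eosinophil gene was higher and 1 neutrophil gene lower. The 10 macrophage markers summed to 376 to 747 CPM in WT and 328 to 470 CPM in ICOS KO, and of 6 tested Csf1r, the macrophage growth factor receptor, fell (11.2 ± 2.19 to 3.86 ± 1.26 CPM; edgeR adjusted p = 0.013; 0.0824 without WT replicate 1 and 0.0617 without ICOS KO replicate 3). Of 4 tested NK cell and ILC1 markers 2 fell, Ncr1 (1.41, 1.21 and 1.64 CPM in WT; 1 read in ICOS KO) and Tbx21 (2.07 ± 0.873 to 0.178 ± 0.195 CPM, a call lost on leaving out any single library other than ICOS KO replicate 1, with edgeR adjusted p up to 0.201, and at 0.0505 with no filter on low counts), while Gzma rose. The part of these eosinophil, neutrophil, macrophage, NK cell and ILC1 markers in the lower levels of the 10 genes was not tested.

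The 10 genes were also compared with all others by their profile over the 6 libraries, as the mean log2 CPM of the 8 tested ones (3.89, 3.84 and 3.86 in WT and 0.64, 1.01 and 0.49 in ICOS KO). The 8 other genes most like it by Pearson's r were Glo1, Csf2, Plscr4, Psmb10, Btbd9, Gm10503, Tuba8 and Ckb (r from 0.9944 to 0.9993), and none of them is in the lists of other mast cell or basophil genes, although Csf2 is in that of growth factors. Of 13167 genes compared, 149 had an r above 0.95. The libraries fall into 2 sets, so r mainly says that a gene was flat within each genotype and lower in ICOS KO, and by Spearman's rho (0.698 to 0.943) 178 to 1672 genes were at least as like it as each of these. Glo1, which encodes glyoxalase, stood at 610 ± 9.15 and 241 ± 13.7 CPM, and Plscr4, a scramblase, at 6.41 ± 0.337 and 1.73 ± 0.134 CPM. Gm10503, a predicted gene, stood at 11.4 ± 0.151 CPM in WT and had no read in ICOS KO.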

How the data were processed

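Messenger RNA was sequenced from 6 libraries of cultured lung ILC2s, with cDNA made by a low-input SMARTer kit per the labels' protocols. The authors deposited estimated counts per gene, 39% of which were not whole (tolerance 1e-09); the submitters' processing notes name Partek 10.0, STAR 2.7.8, DESeq2 and mm10, and not given in the sources used here were annotation, counting method and strand. No molecular identifiers are described, so reads are not independent molecules. Libraries were matched to groups by library name, and the genotype column matched in all 6. Counts were rounded, filtered with filterByExpr (13691 genes left), TMM-scaled and tested with edgeR 4.0.16 quasi-likelihood F tests (limma 3.58.1, R 4.3.3) with Benjamini-Hochberg adjustment at 0.05. SE is that implied by the F statistic. Alternatives used DESeq2 1.42.0, voom, other scalings and filters, a replicate block, an edgeR prior count of 2, unrounded counts and left-out libraries. On simulated counts of 13691 genes for ICOS KO against WT, 67% of 100 genes changed 2-fold and 90% of 100 changed 4-fold were called, with 12 unchanged genes. Each simulated gene took the spread usual for its level, and no outlying library was simulated. The shares may thus be too high for genes of larger spread. No pair of libraries agreed within sampling noise (chi-square per degree of freedom at least 8.85).

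The 10 genes and all 21 other lists were chosen with earlier results of these data known. Named genes were Icos, the 10 genes, up to 6 called genes with the smallest p of each list or its 2 most abundant, Kit, Hdc, Prss34 and Cd200r3 (Prss34 was not analysed here), and the 8 genes of most similar profile (mean of at least 1 CPM in a group). Fcer1g, Gata1, Tph1, Hpgds, Il3ra, Itga2, Kitl, Ctsc, Mcpt1, Mcpt2, Il5, Il2ra and Epx were named after their values were seen. So were Prg3, Ear1, Ear2, Ear6, Siglecf, Il5ra, Slc18a2, Ndst2, Fcgr3, Tal1, Gfi1b, Cebpa, Mrgprb1, Adora3, Slc6a4 and Prf1. Positions, exon lengths and overlaps come from GENCODE M21 (GRCm38), promoters from RefSeq (GRCm38.p6). The remaining lists gave these calls: dendritic cell markers 0 of 3 tested (0 in DESeq2 and voom, and 1 lower at an unadjusted p under 0.05 in edgeR), B and plasma cell markers 1 higher of 8 (3 in DESeq2, 0 in voom), T cell markers 2 higher and 1 lower of 6 (as many in both), epithelial and stromal markers 1 higher of 7 (2 in DESeq2, 1 in voom), erythroid and megakaryocyte markers 1 higher of 3 (1 in DESeq2, 0 in voom), and ILC2 markers 4 higher and 1 lower of 11 (as many in both). Of these calls, those of Hba-a1, Cd79b, Il1rl1, Cd3e, Trbc2 and Rora were lost in 9, 7, 6, 4, 3 and 3 of 15 alternatives.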

Additional observations from a re-analysis of the deposited data

How the results depend on the processing

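Every one of the 8 tested mast cell and basophil genes kept a negative log2 fold change in all 125 combinations of gene and alternative. In 3 of these it moved by more than the spread between replicates: Fcer1a with a prior count of 2 (-3.23) and without ICOS KO replicate 2 (-7.83, where no read is left in ICOS KO and the value is no bound), and Gata2 without that library (-5.93). Cpa3 without ICOS KO replicate 3 (-4.83), Fcer1a without ICOS KO replicate 1 (-3.85) and Gata2 in voom (-4.75) also moved by over 1.5 times in fold. The log2 ratio of the summed CPM of the 10 genes was -3.00 and lay between -3.07 and -2.85 under the 11 alternatives run for it (scalings, unrounded counts, left-out libraries and, at -2.85, Tpsab1 left out of the sum, a choice made after seeing the data). The count of 451 called genes was 929 with DESeq2 and 784 with the replicate number as a block, and 193 to 1091 when 1 library was left out (193 without WT replicate 1, 194 without WT replicate 2, 216 without ICOS KO replicate 3 and 1091 without ICOS KO replicate 1); the cause was not tested. Samples with the same number had correlated deviations of only 0.0868, 0.0784 and 0.0643, so the numbers were not taken as pairs, although each library correlated best with its own number; the block added the call of Stat5b among the named genes. Of the other mast cell genes, 1 was called, and 0 with library totals alone (3 lower and 1 higher at an unadjusted p under 0.05 in the main test); this was 0 to 1 with 1 library left out. Of the other basophil genes, 1 was called, 2 with DESeq2, and 1 to 2 with 1 library left out. S100a8 turned from -0.08 to 0.20 without WT replicate 2 and to 0.19 without ICOS KO replicate 3, with no call in either (-0.33 to 0.20 over all left-out libraries). Kit had no direction (-0.09 to 0.10) and its sign is not counted as a reversal. Of 685 combinations over 46 named genes, 608 kept direction and call, 70 lost a call and 5 gained one. The depth limits Mcpt4, Ms4a2 and Fcer1a, which had at most 7 reads in ICOS KO, where 3 reads over the group are 0.0709 CPM.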
